A study of Mus musculus and Homo sapiens with 14 samples.

Results

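MM.1S, a human multiple myeloma line, and MPC-11, a mouse plasmacytoma line, were compared at baseline, without a guide RNA against IRF4. The comparison used the empty vector libraries only, 2 of MM.1S and 2 of MPC-11, which are 4 of the 14 libraries of the series. Every library of both lines was made from cells transduced with Cas9 and treated with doxycycline, and the cells were sorted on day 3. The 2 groups described here carried an empty vector in place of a guide, and the labels give their genotype as WT. The source of MM.1S is labelled bone marrow, and MPC-11 is labelled lymph node and strain C57BL/6. The other 10 libraries were 4 of the same lines with a guide against IRF4 and 6 of primary mouse B cells and plasma cells. The 6 primary libraries were 1 of follicular B cells, 1 of bone marrow plasma cells, and 4 of splenic plasma cells, 2 with Irf4 flox/+ and 2 with Irf4 flox/- donor marrow, from tamoxifen-treated mice. Nothing in the labels says that replicates came from separate cultures, so p-values measure only the spread between these libraries, which may be technical. Each species is represented by 1 line, so species, tumour type, line, genome annotation and read counting cannot be told apart in any difference below.

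Genes were matched by symbol, ignoring case, and immunoglobulin genes were left out, which gave 16572 matched genes, written here with the human symbol. Values are in CPM, a gene's count scaled to the same fixed total of matched-gene counts in every library, adjusted with TMM, a method that corrects for differences in library composition. In the text, a log2 difference is MM.1S over MPC-11, so a negative value is higher in MPC-11. A gene is said to be higher in a line where edgeR's quasi-likelihood test gave an adjusted p under 0.05, the fitted difference was at least 4-fold and the 4 libraries did not overlap. CPM is not divided by gene length, so values are compared within a gene, between lines.

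Plasma cells are the antibody-secreting end stage of the B cell lineage. IRF4, PRDM1 (BLIMP1) and XBP1 are the transcription factors that set up this state: IRF4 and PRDM1 shut down the B cell program, and XBP1 expands the endoplasmic reticulum for secretion. Myeloma and plasmacytoma are tumours of such cells, and both depend on IRF4. In mouse plasmacytomas Myc is typically joined to an immunoglobulin locus by translocation, while human myelomas carry a wider set of lesions that drive cyclin D genes, MAF, NSD2 or MYC.

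The 2 MM.1S libraries held 21572315 and 19317115 counts and the 2 MPC-11 libraries 19304487 and 19157300 counts. Immunoglobulin genes took 4.22% and 3.95% of counts in MM.1S and 32.7% and 16.6% in MPC-11, which left 19329353 and 17351424 counts of the matched genes in MM.1S and 11634138 and 14702804 in MPC-11. Replicates of each line differed by more than counting error, with a chi-square per degree of freedom of 85.0 in MM.1S and 142 in MPC-11. The ribosomal RNA precursor Rn45s differed between the MPC-11 libraries, at 23050 and 8629 CPM of non-immunoglobulin counts. Its part in the results was not tested.

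Immunoglobulin transcripts served as a check of the labels, because each plasma cell clone makes 1 antibody. MM.1S was derived from a patient's tumour that made a lambda light chain, and its libraries held 293438 and 233696 counts of the lambda-type gene IGLL5 and 273880 and 217184 counts of IGLV2-14, with 0 counts of the kappa constant gene IGKC. Its heavy chain genes were lower, at 9195 and 8550 counts of IGHG1 and 181 and 66 of IGHA1. The check of MM.1S therefore rests on its light chain alone. MPC-11 is known as a producer of the heavy chain gamma 2b with a kappa light chain and as a line of BALB/c origin, and its strain is labelled C57BL/6. The libraries labelled MPC-11 went against this. The gamma 2b gene Ighg2b had 22 and 5 counts, while the alpha gene Igha had 96022 and 123110. The lambda constant gene Iglc1 had 3326283 and 1526015 counts and the lambda variable gene Iglv1 2293223 and 1113511, against 12837 and 10229 of the kappa constant gene Igkc. Kappa variable genes together had 44 and 18 counts. In the bone marrow plasma cell library the same table held 1397944 counts of Ighg2b and 4125717 of Igkc, so both genes could be counted. The name MPC-11 is therefore used below only as the label of these 2 libraries.

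Markers of other cell types were low, with the exceptions given here. The 20 plasma cell markers summed to 19472 and 19896 CPM in MM.1S and to 31746 and 26012 CPM in MPC-11. The list of 13 mature B cell markers, of which 12 were matched, summed to 80.9 and 93.1 CPM in MM.1S and to 55.7 and 58.0 CPM in MPC-11, and PAX5, MS4A1 and CD22 were at 0 in all 4 libraries. The 16 matched markers of T and NK cells summed to at most 5.55 CPM in any library and the 8 of neutrophils to at most 4.2 CPM. The 9 matched erythroid and platelet markers summed to 21.98 and 17.9 CPM in MM.1S, and to 9.06 and 0.555 CPM in MPC-11, and the 9 stromal and endothelial markers to at most 63.2 CPM. The 11 matched macrophage markers summed to 131.9 and 98.0 CPM in MM.1S and to 2661 and 3026 CPM in MPC-11. Nearly all of this was CD68, a lysosomal membrane protein, at 98.6 and 74.5 CPM in MM.1S and 2602 and 2963 CPM in MPC-11, while the defining macrophage genes CSF1R, CD14 and C1QA were at 0 in all 4 libraries. The 6 epithelial markers summed to 0.510 and 2.18 CPM in MM.1S and to 470.8 and 493.0 CPM in MPC-11, nearly all of it EPCAM, described with the surface proteins. The 8 skeletal muscle markers summed to 60.03 and 46.99 CPM in MPC-11, nearly all of it TNNT3.

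The master regulators IRF4, XBP1 and PRDM1 were expressed in both lines, and none of the 3 was called different. IRF4, the factor targeted elsewhere in the series, had 593 and 508 CPM in MM.1S and 676 and 709 CPM in MPC-11 (log2 difference -0.33 ± 0.29 SE, adjusted p = 0.37). XBP1 had 2684 and 2628 CPM in MM.1S and 3907 and 3750 CPM in MPC-11 (log2 difference -0.53 ± 0.28 SE, adjusted p = 0.15). PRDM1 had 299 and 205 CPM in MM.1S and 402 and 681 CPM in MPC-11; the 4 libraries did not overlap, but the difference was below 4-fold (log2 difference -1.10 ± 0.38 SE, adjusted p = 0.047). All 3 genes were lower in both MM.1S libraries than in both MPC-11 libraries, and for IRF4 and XBP1 the difference did not pass the threshold. Ranks were taken from the deposited log2 FPKM, which is scaled to gene length. Among the 9724 genes in both tables, IRF4 stood on average at percentile 91.04 in MM.1S and 94.1 in MPC-11, XBP1 at 99.8 and 99.9, and PRDM1 lower in MM.1S, at 73.4 against 90.3. In the mouse genome (GRCm38.p6, RefSeq) Irf4 lies at chr13:30749233-30766981, Xbp1 at chr11:5520641-5525993 and Prdm1 at chr10:44437174-44528558.

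Over all genes the lines differed widely. Of 10602 genes tested, 2509 were higher in MM.1S, which is 23.7%, and 1638 were higher in MPC-11, which is 15.4%. Another 6455 were not called, and 35.6% of tested genes had a fitted difference below 2-fold. These shares are the background against which each gene list below is read. Of the plasma cell regulators, 1 of 18 tested was higher in MM.1S and 4 of 18 were higher in MPC-11, with a median log2 difference of -1.15, against 0.19 over all tested genes. Scaling without TMM moved that overall median to -0.01, and scaling to all counts including immunoglobulin genes moved it to 0.37, so small differences have no fixed sign.

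**Figure D1:**
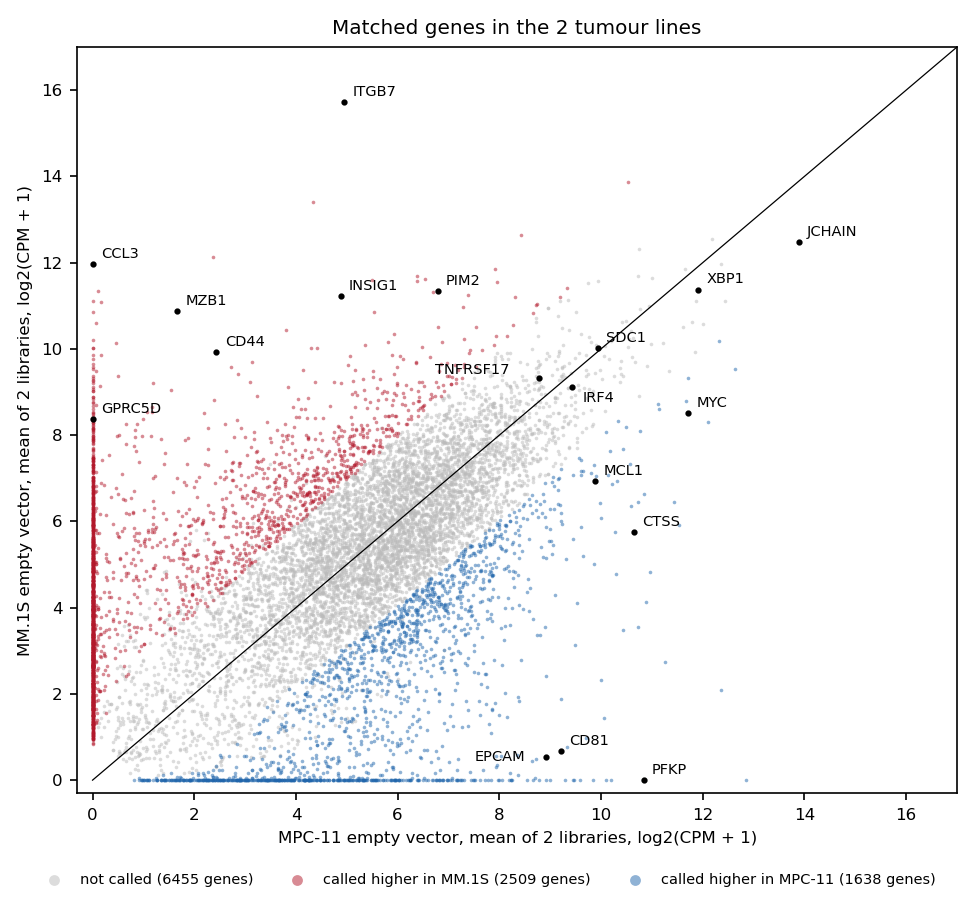
Mean of the 2 empty vector libraries of each line on log2(CPM + 1), for the 10602 tested genes, with MPC-11 on the x axis and MM.1S on the y axis. Each point is a gene, coloured by its call, and the line marks equal values. IRF4, XBP1, SDC1 and TNFRSF17 lie near the line, ITGB7 and CCL3 far above it, and MYC, MCL1 and CTSS below it.

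The 4 regulators higher in MPC-11 were MEF2B, ZBTB20, KLF13 and POU2F2, of which POU2F2 (OCT2) had 6.57 and 5.999 CPM in MM.1S and 21.2 and 34.3 CPM in MPC-11. MEF2B, a germinal centre transcription factor, had no count in MM.1S and 198 and 222 CPM in MPC-11, at least 2410-fold higher. ZBTB20, a zinc finger repressor that sustains long-lived plasma cells, had 5.33 and 0.303 CPM in MM.1S and 226 and 429 CPM in MPC-11 (log2 difference -6.85 ± 1.16 SE, adjusted p = 0.0034). KLF13 had 43.1 and 31.4 CPM in MM.1S and 134 and 226 CPM in MPC-11 (log2 difference -2.28 ± 0.41 SE, adjusted p = 0.004) and fell short of the call without the second MPC-11 library. IKZF3 (Aiolos), a target of the myeloma drug lenalidomide through the adaptor CRBN, was the 1 regulator higher in MM.1S, at 59.6 and 43.3 CPM in MM.1S and 4.28 and 19.2 CPM in MPC-11 (log2 difference 2.12 ± 0.74 SE, adjusted p = 0.048), and its call was lost without the first MM.1S or the first MPC-11 library. The related IKZF1 (Ikaros) had 146 and 131 CPM in MM.1S and 48.6 and 107 CPM in MPC-11 and was not called (adjusted p = 0.16). CRBN itself had 38.5 and 47.5 CPM in MM.1S and 227 and 78.6 CPM in MPC-11 (log2 difference -1.83 ± 0.54 SE, adjusted p = 0.027) and was under the 4-fold limit.

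Ranks over all genes differed far more between lines than between replicates. On the deposited log2 FPKM of 9724 genes, Spearman's rho was 0.968 between the MM.1S libraries, 0.959 between the MPC-11 libraries and 0.603 to 0.627 between a library of each line. As a description of likeness to primary cells, log2(CPM + 1) of the 10602 tested genes correlated with bone marrow plasma cells at 0.725 and 0.737 for the MPC-11 libraries and at 0.570 and 0.547 for the MM.1S libraries. With follicular B cells the MM.1S libraries correlated at 0.569 and 0.555, close to their values with plasma cells, and the MPC-11 libraries at 0.662 and 0.678. MPC-11 shares species, annotation and counting with those mouse cells. These are correlations across genes, which are not independent replicates.

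A counting limit touches part of the genes higher in each line. Several genes that every cell uses were at or near 0 in all 10 mouse libraries, primary cells included. On the scale of all 14 libraries, GAPDH reached at most 24.97 CPM, TMSB4X 0.497 and UQCR11 0.581, against 6714 to 11300 CPM for GAPDH in the 4 human libraries. Of the 2509 genes higher in MM.1S, 1385 had no count in MPC-11, and of the 1638 higher in MPC-11, 428 had none in MM.1S. Such genes entered the test through the higher line alone. Of the 1385, 547 reached 10 CPM in a primary mouse library. Of all 2509, 1396 reached 10 CPM in at least 1 of the 6 primary mouse libraries and 518 stayed under 1 CPM in every mouse library. Among the 8521 tested genes that reached 10 CPM in a primary mouse library, 16.4% were higher in MM.1S and 15.1% higher in MPC-11. That restriction uses mouse values only and was chosen after the values were seen. GAPDH itself passed it, at 10.67 CPM in a primary mouse library. Reaching 10 CPM, here and for the lists below, therefore does not show that a gene was fully counted. In the other direction, MIF and EIF4A1 were listed at 0 and DDX39B at most at 0.175 CPM in all 4 human libraries. Of the 1638 genes higher in MPC-11, 519 stayed under 1 CPM in all 4 human libraries, and 308 were listed at 0 in all 4. Genes named in this report with 0 in all 4 human libraries include MEF2B, TNFRSF13C, BANK1, CDKN2C, PFKP, ITGA1, ITGA5, ADGRE5, KCNN4 and CSN3. The same limit holds for their values and bounds. The human table has no primary cells to set beside these genes.

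Of the surface proteins, SDC1 and TNFRSF17 were expressed in both lines and not called, while many others differed. SDC1 (CD138), the proteoglycan by which plasma cells are sorted, had 953 and 1108 CPM in MM.1S and 1004 and 959.7 CPM in MPC-11 (log2 difference 0.07 ± 0.28 SE, adjusted p = 0.85). TNFRSF17 (BCMA), the receptor for the survival factors APRIL and BAFF and a target of engineered T cells, had 536 and 746 CPM in MM.1S and 499 and 378 CPM in MPC-11 (log2 difference 0.55 ± 0.33 SE, adjusted p = 0.2). The libraries overlapped for SDC1, and the lowest MM.1S value of TNFRSF17 lay just above the highest of MPC-11. Of 25 surface and therapy targets tested, 11 were higher in MM.1S and 5 in MPC-11, which is 44% and 20% against the backgrounds of 23.7% and 15.4%. The median log2 difference was 1.56, and 9 of the 11 reached 10 CPM in a primary mouse library.

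ITGB7, the integrin beta 7 chain that pairs with alpha 4 for adhesion to mucosal and marrow vessels, was the most abundant matched transcript of MM.1S per length, at percentile 100 against 50.02 in MPC-11. Its values were 65070 and 42390 CPM in MM.1S and 25.7 and 33.8 CPM in MPC-11 (log2 difference 10.82 ± 0.52 SE, adjusted p = 0.00018). Its partner ITGA4 had 168 and 129 CPM in MM.1S and 237 and 224 CPM in MPC-11 and was not called (adjusted p = 0.13). In the guide libraries, scaled with all 14 libraries together, ITGB7 had 53043 and 51547 CPM in MM.1S and 311 and 212 CPM in MPC-11, and in bone marrow plasma cells 593 CPM. The mouse gene lies at chr15:102215994-102233405 (GRCm38.p6).

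CD44, a hyaluronan receptor of plasma cells in the marrow, had 1028 and 921 CPM in MM.1S and 5.6 and 3.21 CPM in MPC-11 (log2 difference 7.80 ± 0.47 SE, adjusted p = 0.00018), and on the scale of all 14 libraries bone marrow plasma cells had 382 CPM. CD28, a costimulatory receptor that supports plasma cell survival, had 315 and 276 CPM in MM.1S and 30.6 and 24.3 CPM in MPC-11 (log2 difference 3.43 ± 0.34 SE, adjusted p = 0.0005). CD38, an ectoenzyme targeted by daratumumab, had 29.01 and 19.03 CPM in MM.1S and 1.73 and 0 CPM in MPC-11 (log2 difference 4.83 ± 1.49 SE, adjusted p = 0.032). All 3 receptors were higher in MM.1S, and primary mouse cells reached 394 CPM of CD44 and 520 CPM of CD38.

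GPRC5D, an orphan receptor targeted by T cell engagers, had 377 and 283 CPM in MM.1S and no count in MPC-11. It had no count in any of the 6 primary mouse libraries either, so no direction is drawn from it. SLAMF7, the target of elotuzumab, had 1104 and 921 CPM in MM.1S and 187 and 153 CPM in MPC-11 (log2 difference 2.57 ± 0.32 SE, adjusted p = 0.001). In the guide libraries SLAMF7 was at 602 and 478 CPM in MM.1S and 358 and 264 CPM in MPC-11, and the 4-fold call was not made there. TNFRSF13B (TACI), a second receptor for APRIL and BAFF, had 626 and 518 CPM in MM.1S and 75.1 and 50.1 CPM in MPC-11 (log2 difference 3.19 ± 0.36 SE, adjusted p = 0.00077), while TNFRSF13C, the BAFF receptor of mature B cells, had no count in MM.1S and 139 and 97.5 CPM in MPC-11, at least 1314-fold higher.

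CD81 and EPCAM were abundant in MPC-11 and near 0 in MM.1S. On the scale of all 14 libraries, the 4 human libraries had at most 1.11 CPM of CD81 and 0.583 CPM of EPCAM. For both genes a difference between lines and a counting limit cannot be told apart. CD81, a tetraspanin of the B cell coreceptor, had 1.19 and 0 CPM in MM.1S and 669 and 514 CPM in MPC-11 (log2 difference -9.91 ± 1.12 SE, adjusted p = 0.00077). EPCAM, an adhesion molecule better known from epithelium, had 0.283 and 0.606 CPM in MM.1S and 471 and 493 CPM in MPC-11 (log2 difference -10.07 ± 0.52 SE, adjusted p = 0.00018), and the bone marrow plasma cell library had 450.5 CPM. FCRL5 was too low to test, with at most 0.567 CPM in any of the 4 libraries.

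**Figure D2:**
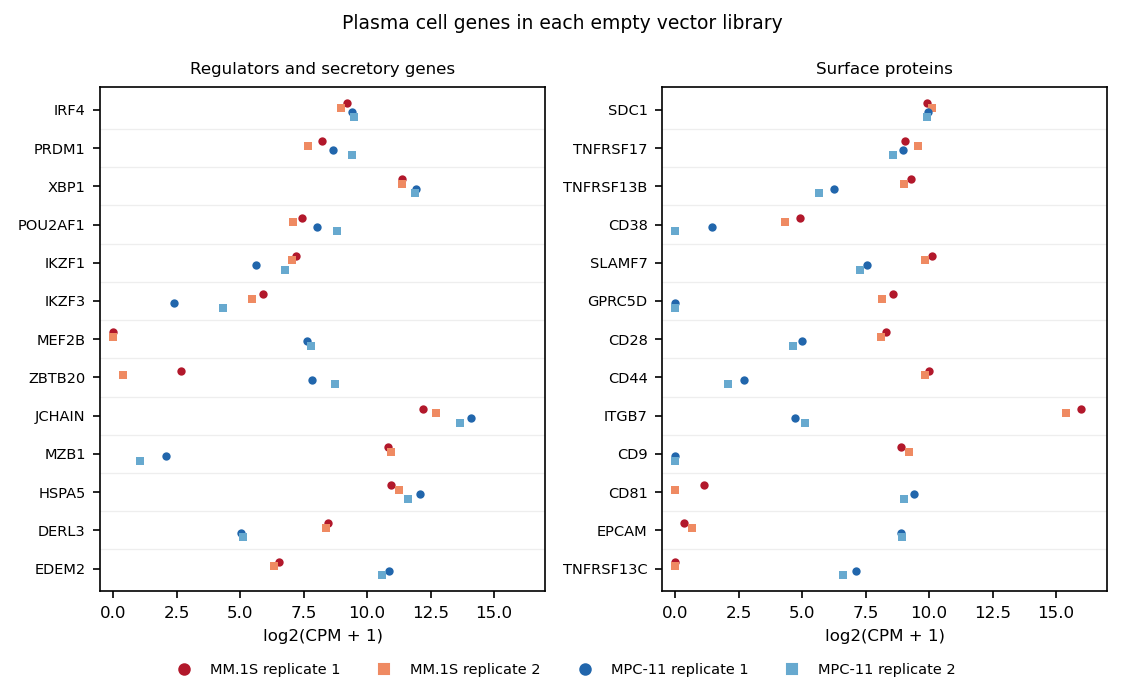
Regulators, secretory genes and surface proteins of plasma cells in each of the 4 empty vector libraries, on log2(CPM + 1). Each symbol is 1 library, red and orange for MM.1S and blue for MPC-11. IRF4, XBP1, SDC1 and TNFRSF17 overlap or nearly overlap between lines, and GPRC5D, CD44 and ITGB7 on one side and CD81, EPCAM and MEF2B on the other are widely apart.

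Most genes of antibody secretion were not called. Of 29 endoplasmic reticulum chaperones and unfolded protein response genes, 2 were higher in MM.1S and 4 in MPC-11, and of 40 genes of translocation into the reticulum and vesicle transport, 2 and 0 were. These shares, 6.90% and 5% for MM.1S and 13.8% and 0% for MPC-11, stand beside backgrounds of 23.7% and 15.4%. No transport gene was called higher in MPC-11 by edgeR or by DESeq2, and 3 had an unadjusted edgeR p under 0.05 in that direction. At an adjusted edgeR p under 0.05 and any fold, 10 of the 40 passed, against 5551 of all 10602 tested genes. HSPA5 (BiP), the main chaperone of the reticulum, had 1974 and 2468 CPM in MM.1S and 4289 and 3152 CPM in MPC-11 (log2 difference -0.74 ± 0.32 SE, adjusted p = 0.09). The members higher in MPC-11 were EDEM2, CRELD2, SYVN1 and SDF2L1. EDEM2, which trims mannose from misfolded glycoproteins, had 91.2 and 80.5 CPM in MM.1S and 1838 and 1547 CPM in MPC-11 (log2 difference -4.30 ± 0.33 SE, adjusted p = 0.00028). CRELD2, a secreted stress protein, had 87.8 and 83.01 CPM in MM.1S and 1261 and 768 CPM in MPC-11 (log2 difference -3.57 ± 0.38 SE, adjusted p = 0.00061), and SYVN1 (HRD1), the ubiquitin ligase of reticulum-associated degradation, had 79.4 and 31.9 CPM in MM.1S and 430.3 and 588 CPM in MPC-11 (log2 difference -3.19 ± 0.51 SE, adjusted p = 0.0027). DERL3 and DNAJB9 were the members higher in MM.1S. DERL3, a channel component of the same degradation path, had 352 and 331 CPM in MM.1S and 31.9 and 33.6 CPM in MPC-11 (log2 difference 3.38 ± 0.32 SE, adjusted p = 0.00044), and in bone marrow plasma cells 2395 CPM.

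Among the secretory genes outside those lists, the joining chain JCHAIN was abundant in both lines and the chaperone MZB1 in MM.1S. JCHAIN, which links IgA and IgM into polymers, had 4666 and 6677 CPM in MM.1S and 17493 and 12755 CPM in MPC-11; it was past the threshold but under 4-fold (log2 difference -1.42 ± 0.34 SE, adjusted p = 0.012). MZB1, a cochaperone for immunoglobulin heavy chains, had 1808 and 1970 CPM in MM.1S and 3.21 and 1.11 CPM in MPC-11 (log2 difference 9.80 ± 0.65 SE, adjusted p = 0.00021). Primary mouse libraries reached 6410 CPM of Mzb1, so the gene was counted in the mouse table.

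B cell genes differed in both directions. Of 39 matched members 25 were tested, and 10 were higher in MM.1S and 10 in MPC-11, 40% each, with a median log2 difference of -0.01. Those higher in MPC-11 included CD79B, a signalling chain of the antigen receptor, which had 43.6 and 48.2 CPM in MM.1S and 634 and 392 CPM in MPC-11 (log2 difference -3.48 ± 0.38 SE, adjusted p = 0.00067). The adaptor BLNK had 52.7 and 62.3 CPM in MM.1S and 558 and 997 CPM in MPC-11 (log2 difference -3.76 ± 0.41 SE, adjusted p = 0.00069), the kinase BTK had 16.7 and 17.9 CPM in MM.1S and 131 and 165 CPM in MPC-11 (log2 difference -3.10 ± 0.37 SE, adjusted p = 0.00098) and the transcription factor SPI1 (PU.1) had 23.2 and 11.8 CPM in MM.1S and 234 and 201 CPM in MPC-11 (log2 difference -3.64 ± 0.45 SE, adjusted p = 0.001). BANK1, an adaptor of the same receptor, and CCR7, the receptor that guides B cells to lymph nodes, had no count in MM.1S. In MPC-11 BANK1 had 52.5 and 50.7 CPM, at least 587-fold higher, and CCR7 had 239 and 122 CPM, at least 1959-fold higher.

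Higher in MM.1S were CIITA, the master regulator of MHC class II genes, with 23.7 and 20.4 CPM, BACH2, a repressor of plasma cell differentiation, with 11.1 and 11.8 CPM, and IRF8, with 7.59 and 12.3 CPM. None of these had a count in MPC-11, and the bounds were at least 209-, 108- and 93.3-fold. Follicular B cells in the mouse table had 1111, 208 and 1379 CPM of the 3 genes on the scale of all 14 libraries. SYK, a kinase of the antigen receptor, was also higher in MM.1S, at 113 and 116 CPM in MM.1S and 0 and 5.18 CPM in MPC-11 (log2 difference 5.43 ± 1.40 SE, adjusted p = 0.016), and DESeq2 did not call it (adjusted p = 0.077). CD79A, the partner of CD79B, was barely detected, at 5.099 and 1.21 CPM in MM.1S and no count in MPC-11, and its call was lost when any 1 of the 4 libraries was left out.

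MYC was higher in MPC-11. It had 295 and 431 CPM in MM.1S and 1924 and 4761 CPM in MPC-11 (log2 difference -3.20 ± 0.51 SE, adjusted p = 0.0028), and the 2 MPC-11 libraries themselves differed more than 2-fold. On deposited log2 FPKM it stood at percentile 93.98 in MM.1S and 99.6 in MPC-11, and bone marrow plasma cells had 32.1 CPM on the scale of all 14 libraries. The neighbouring noncoding RNA PVT1, at which plasmacytoma translocations often break, had 10.1 and 12.1 CPM in MM.1S and 344 and 242 CPM in MPC-11 (log2 difference -4.72 ± 0.39 SE, adjusted p = 0.00031). Of 35 tested genes of the MYC network and of ribosome biogenesis, 5 were higher in MM.1S and 5 in MPC-11, 14.3% each. The fitted difference lay towards MPC-11 for 24 of the 35 and towards MM.1S for 11, with a median log2 difference of -0.47, against 0.19 over all tested genes. At an unadjusted edgeR p under 0.05, 11 of the 35 lay towards MPC-11 and 5 towards MM.1S. At an adjusted edgeR p under 0.05 and any fold, 15 of the 35 passed, against 5551 of all 10602 tested genes. ODC1, a classical MYC target of polyamine synthesis, had 477 and 701 CPM in MM.1S and 67.03 and 58.4 CPM in MPC-11 and was higher in MM.1S (log2 difference 3.23 ± 0.35 SE, adjusted p = 0.00069). CAD, which starts pyrimidine synthesis, had 100.5 and 53.99 CPM in MM.1S and 274 and 806 CPM in MPC-11 and was higher in MPC-11 (log2 difference -2.81 ± 0.60 SE, adjusted p = 0.0076), a call lost without the second MPC-11 library. MYCL, a MYC relative, had 23.8 and 9.57 CPM in MM.1S and no count in MPC-11, but no primary mouse library exceeded 2.04 CPM.

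MM.1S is known to carry a translocation of MAF. MAF had 26.97 and 27.3 CPM in MM.1S and no count in MPC-11, at least 257-fold higher. Of 21 tested members of the list of myeloma oncogenes and MAF targets, 11 were higher in MM.1S and 3 in MPC-11, 52.4% and 14.3% against backgrounds of 23.7% and 15.4%, with a median log2 difference of 4.58. The known MAF targets ITGB7 and CCR1 were among the 11. Not every member of the list lay that way. On the scale of all 14 libraries, TLE4 had 14.37 and 24.77 CPM in MM.1S and 34.05 and 57.31 CPM in MPC-11. FRZB and WNT5A had no count in the 4 empty vector libraries, and SPP1 had at most 0.264 CPM. CCR1, a chemokine receptor, had 353 and 343 CPM in MM.1S and no count in MPC-11, at least 3291-fold higher, with at most 7.77 CPM in primary mouse libraries. CCND2, the cyclin that MAF also drives, had 1340 and 1536 CPM in MM.1S and 436 and 769 CPM in MPC-11, was past the threshold and under 4-fold (log2 difference 1.25 ± 0.37 SE, adjusted p = 0.026). Of the 11, 6 reached 10 CPM in a primary mouse library. NSD2, the gene activated by another myeloma translocation, had 171 and 92.6 CPM in MM.1S and 48.1 and 80.8 CPM in MPC-11 and was not called (adjusted p = 0.096). PIM2, a serine kinase that supports growth of myeloma cells, had 3067 and 2140 CPM in MM.1S and 128 and 90.9 CPM in MPC-11 (log2 difference 4.58 ± 0.39 SE, adjusted p = 0.00034).

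Of 37 tested genes of the cell cycle and DNA replication, 7 were higher in MM.1S and 2 in MPC-11, which is 18.9% and 5.41%. RRM2, the small subunit of ribonucleotide reductase, had 546 and 906 CPM in MM.1S and 21.5 and 48.04 CPM in MPC-11 (log2 difference 4.38 ± 0.53 SE, adjusted p = 0.001), and TYMS, which makes thymidylate, had 114 and 129 CPM in MM.1S and 20.4 and 14.1 CPM in MPC-11 (log2 difference 2.82 ± 0.41 SE, adjusted p = 0.0018). Among G1 regulators 5 of 23 were higher in MM.1S and 4 in MPC-11, 21.7% and 17.4%, close to the backgrounds of 23.7% and 15.4%. Of the 5, 3 reached 10 CPM in a primary mouse library. CDK6 had 56.8 and 64.8 CPM in MM.1S and 0.412 and 0.247 CPM in MPC-11 (log2 difference 7.52 ± 0.63 SE, adjusted p = 0.00032), but no mouse library exceeded 9.48 CPM. Of the inhibitors of CDK4 and CDK6, CDKN2B had 0.6798 and 0.545 CPM in MM.1S and 112 and 76.5 CPM in MPC-11 (log2 difference -7.24 ± 0.56 SE, adjusted p = 0.00027), and CDKN2C, an inhibitor often deleted in myeloma, had no count in MM.1S and 19.02 and 9.68 CPM in MPC-11, at least 156-fold higher. CCND3 had 154 and 201 CPM in MM.1S and 125 and 138 CPM in MPC-11, and CDKN1A (p21) 361 and 272 CPM in MM.1S and 337 and 284 CPM in MPC-11, and neither was called (adjusted p = 0.28 and 0.95). CDKN2A had 0.283 and 0.667 CPM in MM.1S and 3.71 and 7.21 CPM in MPC-11, called higher in MPC-11, a call lost when any 1 of the 4 libraries was left out. CDKN2D had 44.7 and 33.8 CPM in MM.1S and 91.2 and 63.2 CPM in MPC-11 and was not called (adjusted p = 0.085). CCND1 had 7.99 and 7.88 CPM in MM.1S and no count in MPC-11, at least 75.01-fold higher.

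Of 15 tested BCL2 family genes, 2 were higher in MM.1S and 4 in MPC-11, which is 13.3% and 26.7%, and 9 were not called. MCL1, the survival protein on which normal plasma cells depend, had 149.6 and 93.7 CPM in MM.1S and 1004 and 892 CPM in MPC-11 (log2 difference -2.96 ± 0.36 SE, adjusted p = 0.001), and bone marrow plasma cells had 765 CPM on the scale of all 14 libraries. BCL2L1 (BCL-XL) had the opposite pattern, with 306 and 259 CPM in MM.1S and 48.8 and 58.5 CPM in MPC-11 (log2 difference 2.40 ± 0.32 SE, adjusted p = 0.0014) and 47.02 CPM in bone marrow plasma cells. BCL2, the target of venetoclax, was low in both lines, at 25.4 and 10.1 CPM in MM.1S and 22.1 and 33.1 CPM in MPC-11, and the libraries overlapped (adjusted p = 0.41). MCL1 and BCL2L1 were expressed in all 4 libraries and did not overlap between lines.

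Among the killers, the effector BAK1 was higher in MM.1S, at 187 and 186 CPM in MM.1S and 14.8 and 7.46 CPM in MPC-11 (log2 difference 4.07 ± 0.47 SE, adjusted p = 0.0008), but no primary mouse library exceeded 3.45 CPM. BAX was not called, at 70.5 and 71.6 CPM in MM.1S and 78.7 and 53.2 CPM in MPC-11. BBC3 (PUMA), BIK and BNIP3, which antagonise the survival proteins, were higher in MPC-11. BBC3 had 17.3 and 7.39 CPM in MM.1S and 104 and 102 CPM in MPC-11 (log2 difference -3.05 ± 0.53 SE, adjusted p = 0.0036), BIK had 1.47 and 2.06 CPM in MM.1S and 343 and 227 CPM in MPC-11 (log2 difference -7.33 ± 0.48 SE, adjusted p = 0.0002) and BNIP3 had 0 and 0.969 CPM in MM.1S and 371 and 153 CPM in MPC-11 (log2 difference -9.08 ± 1.20 SE, adjusted p = 0.0014). BCL2L11 (BIM) had 93.7 and 44.4 CPM in MM.1S and 119 and 89.7 CPM in MPC-11 and was not called. Of 22 p53 pathway genes, 6 were higher in MM.1S and 5 in MPC-11, 27.3% and 22.7%. MDM2, a ubiquitin ligase, had 94.6 and 115 CPM in MM.1S and 314 and 169.9 CPM in MPC-11, a difference past the threshold and under 4-fold (log2 difference -1.20 ± 0.39 SE, adjusted p = 0.037).

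NF-kB genes were called in both directions. Of 27 tested, 5 were higher in MM.1S and 7 in MPC-11, 18.5% and 25.9% against backgrounds of 23.7% and 15.4%. NFKB1, the precursor of the p50 subunit, had 213 and 166 CPM in MM.1S and 26.1 and 20.8 CPM in MPC-11 (log2 difference 3.01 ± 0.36 SE, adjusted p = 0.00098), and MAP3K14 (NIK), the kinase of the noncanonical arm, had 55.97 and 63.9 CPM in MM.1S and 14.99 and 4.87 CPM in MPC-11 (log2 difference 2.60 ± 0.63 SE, adjusted p = 0.012). TNFAIP3 (A20), an inhibitor and target of the canonical arm, had 484 and 332 CPM in MM.1S and no count in MPC-11, at least 3880-fold higher, with up to 121 CPM in primary mouse libraries. Another inhibitor and target, NFKBIA (IkB alpha), went the other way, at 112 and 81.1 CPM in MM.1S and 409.6 and 389 CPM in MPC-11 (log2 difference -2.05 ± 0.32 SE, adjusted p = 0.0026). REL had 1.02 and 0.909 CPM in MM.1S and 13.01 and 23.7 CPM in MPC-11 (log2 difference -4.24 ± 0.74 SE, adjusted p = 0.0037) and the ligand LTB 0 and 0.788 CPM in MM.1S and 184 and 104 CPM in MPC-11 (log2 difference -8.51 ± 1.16 SE, adjusted p = 0.0015), both higher in MPC-11. TRAF3, a brake on the noncanonical arm, had 31.05 and 40.8 CPM in MM.1S and 6.83 and 40.1 CPM in MPC-11. The libraries overlapped and TRAF3 was not called (adjusted p = 0.54). Without the second MPC-11 library it was called higher in MM.1S, at a log2 difference of 2.37.

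**Figure D3:**
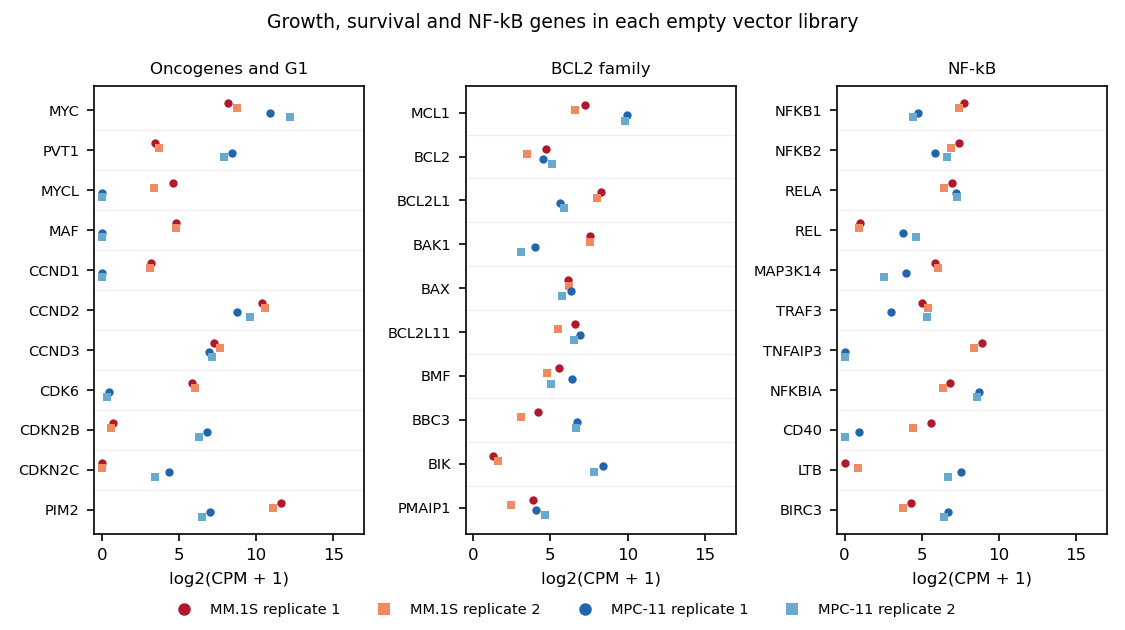
Oncogenes and G1 regulators, BCL2 family genes and NF-kB genes in each of the 4 empty vector libraries, on log2(CPM + 1). Each symbol is 1 library, red and orange for MM.1S and blue for MPC-11. MYC, PVT1 and MCL1 lie further right in MPC-11, BCL2L1, BAK1 and PIM2 further right in MM.1S, and BAX and CCND3 differ little.

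Cholesterol synthesis genes differed mainly in 1 direction. Of 27 tested genes of cholesterol and fatty acid synthesis, 11 were higher in MM.1S and 1 in MPC-11, 40.7% and 3.70% against 23.7% and 15.4%, with a median log2 difference of 1.67. INSIG1, the feedback anchor of the SREBP regulators, had 2491 and 2271 CPM in MM.1S and 28.6 and 28.2 CPM in MPC-11 (log2 difference 6.39 ± 0.35 SE, adjusted p = 0.00018). FDPS, which makes farnesyl diphosphate, had 859 and 887 CPM in MM.1S and 46.4 and 89.2 CPM in MPC-11 (log2 difference 3.69 ± 0.42 SE, adjusted p = 0.00079), LSS, which closes the sterol rings, 1094 and 745 CPM in MM.1S and 50.1 and 66.8 CPM in MPC-11 (log2 difference 3.98 ± 0.38 SE, adjusted p = 0.00046), and DHCR7, which acts near the end of the path, 638 and 625 CPM in MM.1S and 40.9 and 37.2 CPM in MPC-11 (log2 difference 4.01 ± 0.32 SE, adjusted p = 0.00029). SQLE, which adds oxygen to squalene, had 29.8 and 47.9 CPM in MM.1S and 90.1 and 100.4 CPM in MPC-11, past the threshold in favour of MPC-11 and under 4-fold (log2 difference -1.29 ± 0.40 SE, adjusted p = 0.033).

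Of the 11, 9 reached 10 CPM in a primary mouse library. IDI1, an isomerase of the early path, was low throughout the mouse table, at most 3.98 CPM in primary libraries. The exception in the other direction was FASN, the fatty acid synthase, at 56.5 and 26.7 CPM in MM.1S and 171 and 733 CPM in MPC-11 (log2 difference -3.44 ± 0.75 SE, adjusted p = 0.0085), with MPC-11 libraries more than 4-fold apart.

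Interferon response genes also differed mainly in that direction. Of 38 tested, 16 were higher in MM.1S and 3 in MPC-11, 42.1% and 7.89%, with a median log2 difference of 1.80. Of the 16, 13 had no count in MPC-11, and 14 reached 10 CPM in a primary mouse library. The levels in MM.1S were modest. MX1, an antiviral GTPase, had 72.1 and 56.2 CPM, IFIH1 (MDA5), a sensor of double-stranded RNA, 61.5 and 46.8 CPM, OAS2, a 2'-5' oligoadenylate synthetase, 39.2 and 29.4 CPM and EIF2AK2 (PKR), a kinase that stops translation, 21.1 and 32.2 CPM. All 4 had no count in MPC-11, and the bounds were at least 609-, 514-, 326- and 249.9-fold. Primary mouse libraries reached only 6.903 CPM of MX1. On the scale of all 14 libraries, bone marrow plasma cells had 0 CPM of MX1 and OAS2, 1.55 of IFIH1 and 6.39 of EIF2AK2. ADAR, an RNA editing enzyme, was expressed in both lines, at 480 and 456 CPM in MM.1S and 61.5 and 108 CPM in MPC-11 (log2 difference 2.46 ± 0.38 SE, adjusted p = 0.0024). The regulator IRF9 was not called, at 40.5 and 34.4 CPM in MM.1S and 75.5 and 42.9 CPM in MPC-11. IFNAR2, a chain of the type I interferon receptor, was higher in MPC-11, at 155 and 132 CPM in MM.1S and 957 and 597 CPM in MPC-11 (log2 difference -2.44 ± 0.36 SE, adjusted p = 0.002).

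Sequences upstream of 3 mouse genes of this list are shown because Ifit3 and Oas3 had no count in MPC-11, while Ifit1, with the same motif, was counted there. Each window holds the repeated GAAA element to which interferon regulatory factors, the family of IRF4, are known to bind. The 250 bases before the transcript start are given 5′ to 3′ on the gene's strand (RefSeq, GRCm38.p6), with matches to the motif GAAA, any 2 bases, GAAA on either strand in capitals. A match on the opposite strand reads TTTC, any 2 bases, TTTC. The windows lie at chr19:34583279-34583528 for Ifit3 (plus strand), chr19:34640639-34640888 for Ifit1 (plus strand) and chr5:120777660-120777909 for Oas3 (minus strand).
Ifit3: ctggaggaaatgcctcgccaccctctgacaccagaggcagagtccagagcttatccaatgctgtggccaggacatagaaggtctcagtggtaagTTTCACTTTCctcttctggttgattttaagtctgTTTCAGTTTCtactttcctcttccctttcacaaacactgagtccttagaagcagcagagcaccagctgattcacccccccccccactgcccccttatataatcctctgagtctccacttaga
Ifit1: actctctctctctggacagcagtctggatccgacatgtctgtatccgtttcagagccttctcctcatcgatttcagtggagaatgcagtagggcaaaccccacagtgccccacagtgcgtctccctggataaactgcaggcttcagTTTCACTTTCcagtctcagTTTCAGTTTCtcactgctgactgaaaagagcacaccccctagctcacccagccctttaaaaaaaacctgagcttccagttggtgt
Oas3: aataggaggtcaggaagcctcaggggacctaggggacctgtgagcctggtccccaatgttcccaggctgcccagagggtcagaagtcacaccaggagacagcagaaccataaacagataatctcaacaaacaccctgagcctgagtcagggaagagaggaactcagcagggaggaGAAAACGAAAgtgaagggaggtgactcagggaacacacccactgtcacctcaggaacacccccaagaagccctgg

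Ifit3 and Ifit1 lie near each other on mouse chromosome 19 and each had 2 matches in the window, and Oas3 had 1. IFIT3 had 4.42 and 6.85 CPM in MM.1S and no count in MPC-11, at least 52.9-fold higher. Primary mouse libraries reached 103 CPM of IFIT3, but the bone marrow plasma cell library had 0. IFIT1 had 6.34 and 0 CPM in MM.1S and 52.5 and 57.4 CPM in MPC-11, higher in MPC-11 in all libraries but not called (log2 difference -4.11 ± 1.56 SE, adjusted p = 0.063). OAS3 had 23.8 and 6.97 CPM in MM.1S and no count in MPC-11, at least 148-fold higher. Primary mouse libraries reached 33.76 CPM of OAS3, and bone marrow plasma cells had 2.90 CPM. The motif occurred in 2.98% of 32851 mouse promoter windows of this length. Counted by gene, it was in 3.46% of 27025 genes with a window and in 9 of the 29 list members with one. By call it was in 4 of the 10 such members higher in MM.1S, 1 of the 2 higher in MPC-11 and 4 of the 16 not called, and 1 member with a window was not tested. A match is a description of these letters and not a binding site.

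**Figure D4:**
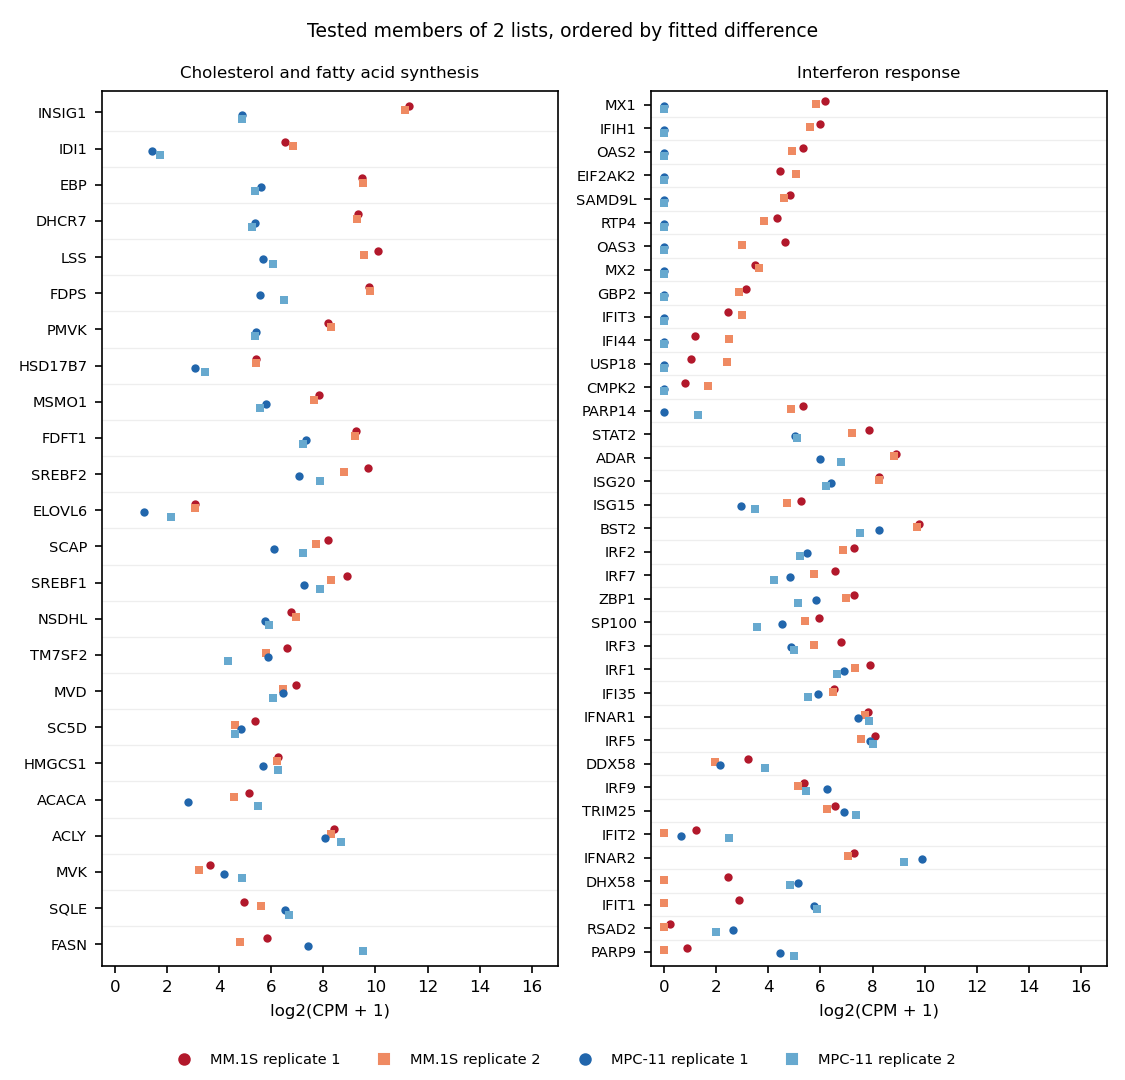
Tested members of the cholesterol and fatty acid synthesis list (24 plotted) and of the interferon response list (37 plotted) in each of the 4 empty vector libraries, on log2(CPM + 1), ordered by the fitted difference. Each symbol is 1 library, red and orange for MM.1S and blue for MPC-11. In MPC-11, 13 of the interferon genes higher in MM.1S sit at 0, while most sterol genes are expressed in both lines and shifted.

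Antigen presentation genes were called more often in favour of MM.1S. Of 15 tested, 5 were higher in MM.1S and 2 in MPC-11, 33.3% and 13.3% against backgrounds of 23.7% and 15.4%. B2M, the light chain of MHC class I, had 2821 and 3169 CPM in MM.1S and 244 and 248 CPM in MPC-11 (log2 difference 3.61 ± 0.31 SE, adjusted p = 0.00035), and bone marrow plasma cells had 7643 CPM on the scale of all 14 libraries. TAPBP, which loads peptide on class I, had 2289 and 1836 CPM in MM.1S and 347 and 493 CPM in MPC-11 (log2 difference 2.29 ± 0.34 SE, adjusted p = 0.002), and RFX5, which acts with CIITA on class II promoters, had 183 and 164 CPM in MM.1S and 8.81 and 9.62 CPM in MPC-11 (log2 difference 4.23 ± 0.38 SE, adjusted p = 0.00037). CTSS, the protease that trims the class II invariant chain, was higher in MPC-11, at 62.3 and 42.8 CPM in MM.1S and 1963 and 1224 CPM in MPC-11 (log2 difference -4.92 ± 0.43 SE, adjusted p = 0.00036). The invariant chain CD74 was abundant in both lines, at 5175 and 4964 CPM in MM.1S and 1716 and 1714 CPM in MPC-11, past the threshold and under 4-fold (log2 difference 1.56 ± 0.28 SE, adjusted p = 0.0042).

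Of 32 proteasome genes tested with edgeR, 0 were higher in MM.1S and 2, or 6.25%, in MPC-11, with a median log2 difference of 0.30. PSMB8, an inducible catalytic subunit of the immunoproteasome, had 152 and 170.4 CPM in MM.1S and 1756 and 1276 CPM in MPC-11 (log2 difference -3.23 ± 0.34 SE, adjusted p = 0.00059). PSMC1 had 1.81 and 3.27 CPM in MM.1S and 184 and 138 CPM in MPC-11 (log2 difference -5.98 ± 0.51 SE, adjusted p = 0.00034), but it is a constitutive subunit of the base and was at most 3.15 CPM in all 4 human libraries on the scale of all 14, so no direction is drawn from it. DESeq2 called 1 proteasome gene higher in MM.1S, and 7 had an unadjusted edgeR p under 0.05 in that direction. At an adjusted edgeR p under 0.05 and any fold, 10 of the 32 passed, against 5551 of all 10602 tested genes.

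Chemokine, cytokine and adhesion genes were often called, mostly in favour of MM.1S. Of 34 tested chemokines, cytokines and receptors, 18 were higher in MM.1S and 6 in MPC-11, 52.9% and 17.6%, with a median log2 difference of 2.58. CCL3 (MIP-1 alpha), which myeloma cells secrete and which drives osteoclasts, had 4691 and 3349 CPM in MM.1S and no count in MPC-11, at least 38219-fold higher, with at most 2.48 CPM in primary mouse libraries. IL2RG, the shared receptor chain for the cytokines of the IL2 family, had 933 and 819.5 CPM in MM.1S and no count in MPC-11, at least 8301-fold higher, and up to 1101 CPM in primary mouse libraries. The receptors CXCR3 and IL10RA also had no count in MPC-11. In MM.1S CXCR3 had 154 and 182 CPM, at least 1587-fold higher, and IL10RA 304 and 249 CPM, at least 2623-fold higher. CXCR4, the receptor that holds plasma cells in the marrow, was not called, at 41.2 and 44.05 CPM in MM.1S and 39.5 and 28.9 CPM in MPC-11 (adjusted p = 0.55).

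Of 20 adhesion genes tested, 10 were higher in MM.1S and 3 in MPC-11, 50% and 15%. SELPLG, the ligand of P-selectin, had 4188 and 2378 CPM in MM.1S and 77.2 and 87.2 CPM in MPC-11 (log2 difference 5.32 ± 0.43 SE, adjusted p = 0.0003). CADM1, an immunoglobulin superfamily adhesion protein, had 541 and 371 CPM in MM.1S and no count in MPC-11, at least 4337-fold higher, with up to 212 CPM in primary mouse libraries. ICAM1 was higher in MPC-11, at 98.6 and 53.6 CPM in MM.1S and 429 and 413 CPM in MPC-11 (log2 difference -2.47 ± 0.39 SE, adjusted p = 0.0026), and was not called in the guide libraries. The integrin chains ITGA5 and ITGA1 had no count in MM.1S. In MPC-11 ITGA5 had 14.2 and 41.1 CPM and ITGA1 31.4 and 46.5 CPM.

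**Figure D5:**
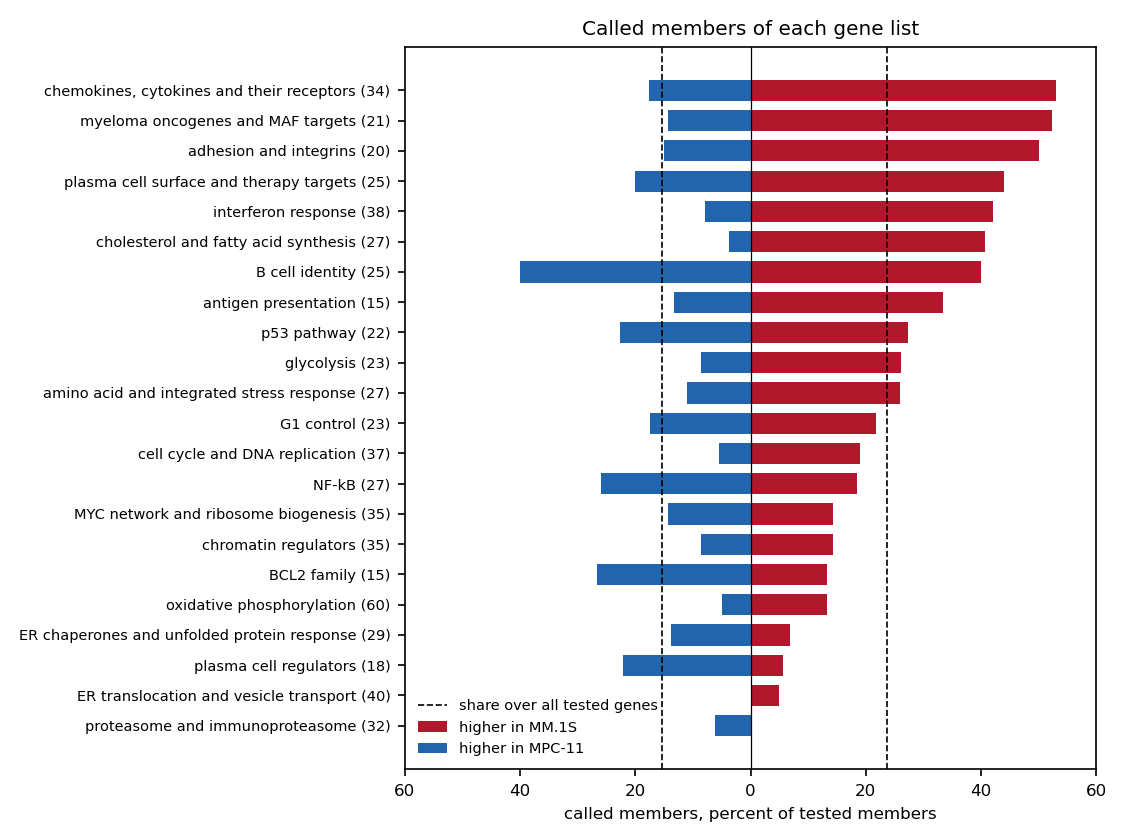
Share of tested members called higher in MM.1S (right, red) and in MPC-11 (left, blue) for 22 gene lists, in percent, with the number of tested members in brackets. Dashed lines mark the shares over all 10602 tested genes, 23.7% and 15.4%. Chemokine, MAF, adhesion, surface, interferon and cholesterol lists extend past the right line, and the proteasome and translocation lists fall well short of both.

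Of 60 nuclear genes of oxidative phosphorylation, 8 were higher in MM.1S and 3 in MPC-11, 13.3% and 5%. All 12 tested mitochondrially encoded genes were higher in MPC-11, as all were listed at 0 in the 4 human libraries; COX1 had 5929 and 8789 CPM in MPC-11. Since every human cell transcribes these genes, no difference is drawn. Of 23 glycolysis genes, 6 were higher in MM.1S and 2 in MPC-11, 26.1% and 8.70% against backgrounds of 23.7% and 15.4%. The 6 included GAPDH, PGK1 and LDHB, of which no mouse library exceeded 97.2 CPM. PFKP, the platelet type of phosphofructokinase, had no count in MM.1S and 1702 and 1951 CPM in MPC-11, at least 20994-fold higher. It was listed at 0 in all 4 human libraries, so a difference between lines and a counting limit cannot be told apart. The other isoenzymes were not called. PFKL had 934 and 796 CPM in MM.1S and 932 and 1333 CPM in MPC-11, and PFKM had 122 and 144 CPM in MM.1S and 71.4 and 144 CPM in MPC-11. ALDOA, TPI1 and LDHA were among the 20 genes that ranked within the 100 highest per length in all 4 libraries, and none of the 3 was called.

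Of 27 tested genes of amino acid supply and the integrated stress response, 7 were higher in MM.1S and 3 in MPC-11, 25.9% and 11.1%. In the guide libraries the counts were 2 and 3. DDIT4 had 932 and 183 CPM in MM.1S and 149 and 70.5 CPM in MPC-11 and TRIB3 423 and 141 CPM in MM.1S and 57.97 and 9.003 CPM in MPC-11, so the first MM.1S library was more than 2-fold above the second for each. CHAC1, which breaks down glutathione, had 97.5 and 19.3 CPM in MM.1S and 7.49 and 4.07 CPM in MPC-11 (log2 difference 3.34 ± 0.85 SE, adjusted p = 0.015), and its call was lost without the first MM.1S library. CEBPB was higher in MPC-11, at 11.2 and 4.79 CPM in MM.1S and 132 and 146 CPM in MPC-11 (log2 difference -4.12 ± 0.54 SE, adjusted p = 0.0013). Among chromatin regulators 5 of 35 were higher in MM.1S and 3 in MPC-11, 14.3% and 8.57%, and in the guide libraries 2 and 6 were. EZH2, the histone methyltransferase of Polycomb complexes, had 103 and 117 CPM in MM.1S and 15.7 and 23.6 CPM in MPC-11 (log2 difference 2.48 ± 0.41 SE, adjusted p = 0.0031), its relative EZH1 18.9 and 26.4 CPM in MM.1S and 104 and 168 CPM in MPC-11 (log2 difference -2.59 ± 0.43 SE, adjusted p = 0.0032), and BMI1, of the other Polycomb complex, 3.46 and 5.63 CPM in MM.1S and 153 and 131 CPM in MPC-11 (log2 difference -4.96 ± 0.47 SE, adjusted p = 0.00045). EZH2 was higher in MM.1S and EZH1 and BMI1 in MPC-11.

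The genes with the largest differences included many counted in 1 line only. On the MM.1S side, GAS6, a ligand of the TAM receptor kinases, had 2453 and 1955 CPM, ST6GAL1, which adds sialic acid to glycoproteins, 2124 and 1576 CPM, and SULF2, a heparan sulfate editor, 1042 and 825 CPM, with no count in MPC-11. For these 3 the bounds were at least 20915-, 17574- and 8859-fold, and primary mouse libraries reached 78.3, 1698 and 27.8 CPM. On the MPC-11 side, ADGRE5 (CD97), an adhesion receptor of leukocytes, had 982 and 1210 CPM, KCNN4, a calcium-activated potassium channel, 763 and 622 CPM and CSN3, kappa casein, 1294 and 536 CPM, with no count in MM.1S and bounds of at least 12667-, 7774- and 9798-fold. CSN3 encodes a milk protein and was at 44.3 CPM in bone marrow plasma cells. With a level of at least 50 CPM in both libraries of one line and under 1 CPM in both of the other, 243 genes were seen only in MM.1S and 110 only in MPC-11. Bone marrow plasma cells had at least 10 CPM of 95 of the 243 and of 84 of the 110. They had under 1 CPM of another 95 of the 243 and of 9 of the 110. The 110 were chosen as counted in mouse libraries and the 243 as nearly absent from them. The values in another mouse library are therefore not comparable between the sets, and no likeness to plasma cells is drawn from them.

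Of the 20 genes within the 100 highest per length in all 4 libraries, 1 was called: ACTB, at 14406 and 15332 CPM in MM.1S and 1338 and 1617 CPM in MPC-11 (log2 difference 3.33 ± 0.32 SE, adjusted p = 0.00046). The others included ribosomal protein genes such as RPL8, at 1802 and 2071 CPM in MM.1S and 2130 and 1351 CPM in MPC-11, and RPS15, at 545 and 750 CPM in MM.1S and 752 and 493 CPM in MPC-11, the disulfide isomerase P4HB, at 3423 and 2953 CPM in MM.1S and 2503 and 1582 CPM in MPC-11, and the secretory genes XBP1 and JCHAIN. Neither RPL8, RPS15 nor P4HB differed past the threshold (adjusted p = 0.72, 0.91 and 0.15).

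The differences between lines recurred in the libraries with a guide against IRF4, which are separate libraries of the same lines. There 2775 of 10790 tested genes were higher in MM.1S and 1672 in MPC-11, 25.7% and 15.5%. Of the 2370 genes higher in MM.1S at baseline and tested in both, 2097 were also called there, and of 1561 higher in MPC-11, 1290 were. No gene was called in the opposite direction. MYC, MCL1, BCL2L1, ITGB7, CD44 and INSIG1 kept their calls, while SLAMF7, EZH2, ICAM1, IFNAR2, CDKN2A, DDIT4 and CHAC1 did not.

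The lists did not all keep their counts in the guide libraries. Of interferon genes 18 were higher in MM.1S and 2 in MPC-11 there, of chemokine and cytokine genes 18 and 7, of adhesion genes 12 and 2, and of cholesterol genes 9 and 1. Genes of translocation into the reticulum and vesicle transport went from 2 and 0 to 6 and 0. For 2 of the 23 lists, amino acid supply and chromatin regulators, the line with more called genes changed. The median log2 difference moved by 0.25 or more for 15 of the 23 lists and had the other sign for 6. Among these 6, it was -0.53 in the empty vector and 0.26 in the guide libraries for reticulum chaperones, 0.19 and -0.42 for NF-kB genes, 0.17 and -0.31 for amino acid supply and 0.30 and -0.18 for glycolysis.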

How the data were processed

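RNA was extracted with an RNeasy kit and libraries were made with a Nextera kit, per the labels' protocols. The authors deposited raw counts per gene for each species and a log2 FPKM value per gene and library. Subread 1.6.0, featureCounts, limma and the builds mm10 and hg38 are listed, per the submitters' processing notes. How the log2 FPKM values were normalised is not given in the sources used here, and they were used only for ranks within a library and for implied gene lengths.

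Genes of both count tables were matched by symbol ignoring case: 27945 human and 26221 mouse symbols gave 16607 matches, and 35 immunoglobulin genes were dropped. Entries without a symbol, 0.0383% to 0.270% of counts in the 4 libraries, were left out. Of the 16572 matched genes, 4010 had no count in the 4 libraries, and edgeR's filterByExpr with a minimum count of 10 left 10602 to test. Counts were scaled with TMM and tested with edgeR 4.0.16 (quasi-likelihood test, Benjamini-Hochberg adjustment) in R 4.3.3, with no replicate block. The code was tested on simulated data. A bound ("at least N-fold") sets the line without counts to 3 counts over its 2 libraries and covers counting error only. Plots and correlations use log2(CPM + 1), a pseudocount of 1. Values of other libraries are CPM scaled with all 14 libraries together. Among the deposited mouse counts, 2 columns of Irf4 flox/+ plasma cells carry the same name, and only their group was used. Alternatives included DESeq2 1.42.0, other scalings, the replicate block, leaving out each library, and the guide libraries.

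The genes named by rule were the 15 with the largest called differences in each direction at 50 CPM or more in the higher line, up to 3 called members of each list in each direction, up to 20 genes within the 100 highest per length in every library, and a fixed set of 41 genes. Other genes were named after their values were seen. The members and lists were chosen with earlier results of these data known. Some members of the lists are counted but not reported here by name. Counts of list members are set beside the share over all tested genes and carry no test of their own.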

Additional observations from a re-analysis of the deposited data

How the results depend on the processing

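Of 145 genes named by rule and called different, none changed direction under any alternative run. Without 1 of the 4 libraries, the number higher in MM.1S ranged from 1979 to 2397 and the number higher in MPC-11 from 1397 to 1616, against 2509 and 1638. Leaving out a library ended the calls of 19 of these genes, the guide libraries those of 19, the 8-fold limit those of 21 and DESeq2 those of 0 of the genes to which it gave an adjusted p. With the 8-fold limit 1988 and 1077 genes were called. The replicate numbers as a replicate block gave 2044 and 1453. The deviations of same-numbered libraries of the 2 lines correlated at -0.106 across genes. Genes are not replicates, so this value cannot tell whether same-numbered libraries were handled together. The crossed pairing, chosen after seeing the data, gave 2081 and 1493. The 2 planned corrections for gene length could not be run as written because the count tables give no lengths. In their place, chosen after seeing the data, lengths implied by counts and log2 FPKM gave 1412 and 955 calls as an offset over 8117 genes, and 1001 and 642 over 6122 genes with lengths within 1.5-fold; fewer genes entered both. Among the 8521 genes at 10 CPM or more in a primary mouse library, 1396 and 1284 were called. Calls higher in MM.1S were 60.5% of all calls, and 64.6% with immunoglobulin genes kept in the library size. The mean rho between lines, 0.613 on log2 FPKM, was 0.741 on log2(CPM + 1) of all matched genes and 0.508 on that of tested genes.

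The sign of the log2 difference turned for 16 genes named by rule that were not called, and the cause was not tested. In the guide libraries the log2 difference was -0.0395 for ALDOA, 0.22 for BCL2, -0.29 for CCND3, -0.89 for CDKN1A, -0.0012 for CXCR4, 0.29 for HSPA5, -0.15 for TPI1 and -0.42 for TRAF3. With the implied length offset the log2 difference was -0.25 for ALDOA, -0.091 for BSG, -0.0803 for CDKN1A and -0.11 for RPS15. With library size alone the log2 difference was -0.13 for BSG, -0.18 for CDKN1A, -0.038 for RPL8, -0.13 for RPS15 and -0.13 for SDC1. With implied lengths within 1.5-fold the log2 difference was -0.014 for BSG, -0.049 for CDKN1A and -0.014 for RPS15. Leaving out 1 library at a time gave ranges of -0.28 to 0.50 for BSG, -0.19 to 0.22 for CDKN1A, -0.77 to 0.12 for LDHA, -0.86 to 0.16 for PSMA7, -0.19 to 1.20 for RPL36, -0.16 to 0.54 for RPL8, -1.38 to 0.086 for RPS14, -0.23 to 0.41 for RPS15, -0.041 to 0.18 for SDC1 and -0.14 to 2.37 for TRAF3.

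Depth limits genes at low counts: 5970 of the 16572 matched genes were not tested, and a gene at 0 in a library of MPC-11 was read from 11634138 or 14702804 matched counts, against 19329353 or 17351424 in MM.1S.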

Other observations

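Genes that carry different symbols in the 2 species could not be matched, and some of them belong to groups described above; their values are CPM of all non-immunoglobulin counts. MHC class II genes were present in MM.1S, with 457 and 541 for HLA-DRA, 198 and 200.2 for HLA-DPA1 and 119.9 and 113.8 for HLA-DRB1, while HLA-DQA1 had 0.145 and 0.539. In MPC-11 the class II alpha chain gene H2-Aa had 0 in both libraries and the beta chain gene H2-Ab1 4.54 and 4.70, against 825 and 4207 in the bone marrow plasma cell library. The other beta chain gene H2-Eb1 had 430.0 and 289.7 in MPC-11, so MPC-11 held transcripts of 1 of these 3 chains in quantity. MHC class I genes were expressed in both lines, at 1325 and 1173 for HLA-B in MM.1S and at 1825 and 1284 for H2-D1 in MPC-11.

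The RNA poly(A) polymerase often mutated in myeloma, FAM46C in the human table and Tent5c in the mouse table, had 1069 and 803 in MM.1S and 456 and 550.3 in MPC-11. Trap1a, a mouse tumour antigen gene, had 1448 and 1063 in MPC-11 and 0 in both the bone marrow plasma cell and the follicular B cell library. Scd2, a fatty acid desaturase gene, had 760 and 1357 in MPC-11, while Scd1, another mouse desaturase gene, had only 14.8 and 37.8. The human desaturase gene SCD had 1781 and 1298 in MM.1S. No test was made on these genes.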
